A study of Mus musculus with 12 samples.

Results

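The set comprised the 10 genes of adenosine signalling and turnover: the 4 receptor genes Adora1, Adora2a, Adora2b and Adora3, the adenosine-forming enzyme genes Entpd1 and Nt5e, the nucleoside carrier gene Slc29a1, the adenosine-removing enzyme genes Ada and Adk, and Dpp4. Every non-control probe annotated to these genes was taken, whatever its signal. That gave 17 of 41174 probes and 10 of 17016 gene symbols. RNA came from pancreatic islets cut by laser from frozen pancreas. It covered 6 NOD mice and 6 NOD.B10 mice, 1 array each, all of them females aged 12 weeks. NOD mice develop autoimmune diabetes, and NOD.B10 mice are a healthy control strain with the NOD background and another MHC haplotype. Amplified islet RNA of 1 mouse was labelled with Cy5 on each of the 12 arrays, and a universal mouse reference RNA with Cy3. The comparison asks which of these transcripts differ in islets of the diabetes-prone strain.

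Adenosine outside the cell is formed stepwise from released ATP. CD39, encoded by Entpd1, trims ATP and ADP to AMP, and CD73, encoded by Nt5e, converts AMP to adenosine. Adenosine acts on G protein-coupled receptors that lower cAMP (A1 and A3) or raise it (A2a and A2b). Equilibrative transporters carry it across the membrane, adenosine deaminase converts it to inosine, and adenosine kinase returns it to AMP. In islets the A1 receptor is best known from glucagon-secreting alpha cells, and A2a on leukocytes is known for restraining their activation.

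Islet signal as a whole was stronger in NOD, which bears on every value here. Cy5 was well above background, a mark set by the scanner software, on 10.7 to 17.3% of spots in NOD and on 3.96 to 7.88% in NOD.B10. The islet genes Ins1, Ins2, Iapp, Gcg and Sst were each well above background in Cy5 on all 12 arrays. So were the acinar genes Amy1, Cpa1, Cpb1, Pnlip, Sycn and Clps. Leukocyte markers differed between the strains: 7 of 7 tested were called higher, and their summed Cy5 signal over background was 576 to 4466 scanner units in NOD and 5.88 to 55.3 in NOD.B10. Gcg, the glucagon gene of alpha cells, had a median net Cy5 of 26931 units in NOD and 10285 in NOD.B10, while its log2 ratio was lower in NOD (difference -1.19, adjusted p = 0.0263). By ratio 3 of 6 tested beta cell markers were called lower in NOD, among them Ins2 (-3.35) and Slc2a2 (-2.58), as were 5 of 7 acinar markers (Amy1 -4.51) and 2 of 2 duct markers. Of all tested genes, 18.3% were called lower. Summed beta cell signal was 4258 to 32982 units in NOD and 12166 to 31000 in NOD.B10, with Mafa, Pdx1, Ucn3 and Slc30a8 well above background on no array. Summed acinar signal was 317 to 3561 units in NOD and 241 to 10824 in NOD.B10. Summed duct signal ran against the ratio calls, with 37.7 to 92.6 units in NOD and 10.6 to 28.5 in NOD.B10. The duct markers Krt19, Sox9, Cftr and Muc1 were well above background on no array. The part of cell makeup in the values of single genes was not tested, and in such tissue fewer cells of a type and less RNA per cell cannot be told apart. The arrays lay on 4 slides. Slide 1 held NOD replicates 1 and 2, slide 4 held NOD.B10 replicates 2 and 3 and was scanned on another day, and slides 2 and 3 held 2 mice of each strain apiece.

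Of the 17 probes, 7 had Cy5 well above background on at least 1 array and 10 on none. Per array this was 2 to 5 member probes in NOD and 1 to 3 in NOD.B10. Adora2b, Adora3 and Slc29a1 had no such probe. Only Adora2a, Ada, Adk and Nt5e, with 1 probe each, reached 4 of the 12 arrays and so entered the test across 3920 genes. Since a probe could pass through bright NOD arrays alone, as Nt5e did, those 4 do not stand for the set.

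The islet signal was read in 2 ways. The net Cy5 signal is the spot's brightness less its background, in scanner units, not scaled between arrays. The log2 ratio sets Cy5 against Cy3 of the same spot after background correction with an added offset and loess normalisation within the array, and differences are NOD minus NOD.B10. Adjusted p values are limma's with Benjamini-Hochberg adjustment over all genes or probes of the fit. Permutation p values are exact and 2-sided over the 12 arrays, and can be no smaller than 0.00216.

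**Figure D1:**
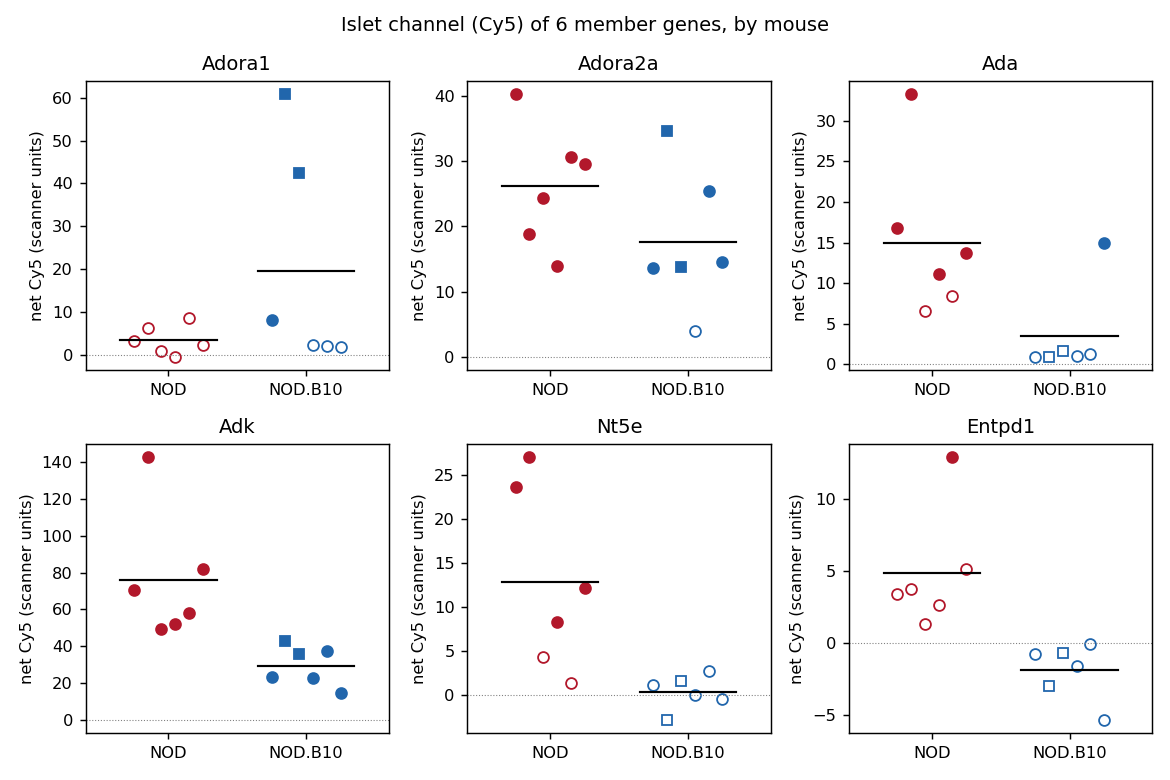
Net Cy5 signal (scanner units, not scaled between arrays) of member probes on each array, with NOD left of NOD.B10 in each panel. Filled symbols mark arrays with Cy5 well above background, open ones the others, squares slide 4, and black lines the mean. All 6 NOD arrays lie above all 6 NOD.B10 arrays for Adk (49.5 to 142.9 against 14.5 to 42.6 units), as for 46.5% of tested genes. The NOD.B10 arrays of slide 4 stand apart for Adora1.

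Adora1 encodes the A1 receptor. No NOD array detected it above background with any of its 3 probes, while its probe A_51_P188845 was detected on 3 NOD.B10 arrays. Net Cy5 of that probe was 3.15, 6.29, 0.769, -0.569, 8.47 and 2.33 units in NOD replicates 1 to 6, against 8.02, 60.9, 42.5, 2.15, 2.13 and 1.85 in NOD.B10 replicates 1 to 6. The high values were those of NOD.B10 replicates 2 and 3, the mice of slide 4, and the other 4 NOD.B10 arrays lay within the range of NOD. The log2 ratio was -0.11 to 0.35 in NOD and -0.16 to 1.85 in NOD.B10. The difference was -0.41 with a 95% interval of -1.10 to 0.27 and did not pass in the fit of all 41174 probes (adjusted p = 0.661, exact permutation p = 0.398).

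The Cy3 channel of the same spot moved with slide 4. It should hold the same reference RNA on every array, yet it read 403 and 504 units on slide 4 and 7.22 to 26.9 on the other 10 arrays, a 35.2-fold difference of geometric means. Without slide 4 the Adora1 difference was 0.13 (adjusted p = 0.684). Fitted with slide as a fixed term, it was 0.041 (adjusted p = 0.962). Slide 4 was apart for other probes too. Of 26296 probes with Cy3 above background on some array, 670 (2.55%) were over 8-fold higher and 557 over 8-fold lower in Cy3 on that slide. Of these 670, Cy5 was well above background on both slide 4 arrays for 108 (16.1%), on any other NOD.B10 array for 63 (9.40%) and on any NOD array for 86 (12.8%). Apart from the 8.02 units of NOD.B10 replicate 1, the detected Adora1 signal came from a slide that holds no NOD mouse, and slide and strain cannot be told apart there.

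The other Adora1 probes were well above background in Cy5 on no array. A_52_P172272 differed by 0.02 on the log2 scale. A_52_P661412 differed by -0.23 and was called lower in the fit of all probes (adjusted p = 0.0319, exact permutation p = 0.00216), although its net Cy5 was only -3.13 to 2.39 units in NOD and -2.19 to 2.57 in NOD.B10. That call was lost under 12 of 17 processing alternatives. It was also lost without NOD replicate 1, 2 or 6 or NOD.B10 replicate 1, 2, 5 or 6, where the difference was -0.23 to -0.20 (adjusted p = 0.0517 to 0.0778). Without slide 4 it was -0.22 (adjusted p = 0.0599). In the fit of all 12 arrays 6.28% of all probes were called, 4.07% in the lower direction, as were 2.35% of the probes with islet signal well above background on no array.

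**Figure D2:**
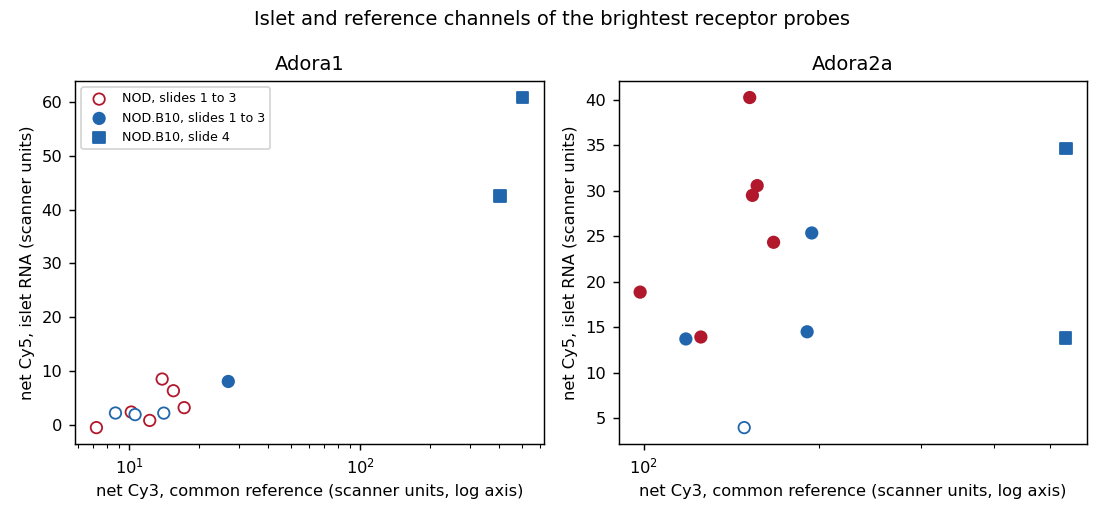
Net Cy3 signal of the reference RNA (horizontal, log scale, scanner units) against net Cy5 signal of islet RNA (vertical, scanner units) for the detected Adora1 and Adora2a probes, 1 point per array. Squares are the NOD.B10 arrays of slide 4, and open symbols are arrays with Cy5 not well above background. For Adora1 the slide 4 arrays lie at 403 and 504 units of Cy3, against 7.22 to 26.9 on all others.

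Adora2a, which encodes the A2a receptor, was the only receptor gene detected across most arrays. Its probe A_52_P240878 was well above background on 6 of 6 NOD and 5 of 6 NOD.B10 arrays. Net Cy5 was 40.2, 18.8, 24.3, 13.9, 30.5 and 29.5 units in NOD, against 13.7, 34.6, 13.8, 3.95, 25.3 and 14.5 in NOD.B10. The strains overlapped, with NOD replicate 1 highest and NOD.B10 replicate 4 lowest. Log2 ratios were 1.16, 0.37, 0.70, 0.45, 1.06 and 0.80 in NOD and 0.46, 1.02, 0.24, 0.27, 0.91 and 0.50 in NOD.B10. The difference of 0.19 ± 0.18 (SE, n = 6 each) had an interval of -0.19 to 0.57 and did not pass (adjusted p = 0.418, exact permutation p = 0.314). Thus a difference of up to 0.57 upward or 0.19 downward lies within the error of this fit. Cy3 at this spot was 530 and 532 units on slide 4 and 98.7 to 194.6 elsewhere. The second Adora2a probe, A_51_P387348, was well above background on no array, with net Cy5 of -1.41 to 3.15 units in NOD and -1.62 to 2.10 in NOD.B10.

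Adora2b and Adora3, the A2b and A3 receptor genes, have 1 probe each and were not above background in Cy5 on any array. Net Cy5 of Adora2b was -1.05 to 2.21 units in NOD and -0.162 to 3.56 in NOD.B10. For Adora3 it was -1.94 to 0.986 units in NOD and -0.914 to 1.40 in NOD.B10. The reference channel gave no detection of Adora2b either, and detected Adora3 on 1 array, so these probes have no usable readout here in either direction.

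Entpd1 and Nt5e, which form adenosine outside the cell, gave low islet signals, and neither ratio passed the test. The brighter probe of each had higher unscaled signal in NOD. Nt5e (A_52_P574668) was well above background on 4 of 6 NOD arrays and on none of NOD.B10. Its net Cy5 was 23.7, 27.1, 4.29, 8.32, 1.29 and 12.1 units in NOD, against 1.14, -2.84, 1.56, -0.0371, 2.77 and -0.420 in NOD.B10. NOD replicates 1 and 2 were the highest, and NOD replicate 5 lay inside the NOD.B10 range (exact permutation p = 0.00649 for the unscaled signal). After scaling against Cy3 the log2 difference was -0.078 ± 0.092 with an interval of -0.28 to 0.12 (SE, n = 6 each, adjusted p = 0.537). No fold is given, since the lower bound for NOD over NOD.B10 was not above 1. The other Nt5e probe was above background on no array in either channel.

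Entpd1 (A_52_P21835) was well above background on 1 array, NOD replicate 5. Net Cy5 was 3.38, 3.73, 1.32, 2.63, 12.9 and 5.15 units in NOD and -0.753, -2.997, -0.719, -1.63, -0.101 and -5.35 in NOD.B10, so that every NOD value exceeded every NOD.B10 value (exact permutation p = 0.00216). That held for 7.15% of all probes and 46.5% of tested genes, and 11 of these 12 values were not well above background. All NOD.B10 values were below 0, that is, below background. The log2 difference was 0.24 (95% interval 0.011 to 0.48) and did not pass in the fit of all probes (adjusted p = 0.294). The second Entpd1 probe, well above background on no array, differed by 0.13. Its net Cy5 overlapped, with -1.53 to 8.06 units in NOD and -0.260 to 1.66 in NOD.B10 (exact permutation p = 0.355).

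Slc29a1, which encodes the nucleoside transporter ENT1, was well above background on no array, although Cy3 detected its probe on all 12. Net Cy5 was 0.705 to 7.56 units in NOD and -1.68 to 3.32 in NOD.B10, and the log2 difference of -0.09 did not pass (adjusted p = 0.703).

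The genes of adenosine removal, Ada and Adk, were the members called. Both were lower in NOD by ratio, which is 0 of 4 tested members higher and 2 lower. Of all 3920 genes, 18.7% were called higher and 18.3% lower, 37.0% in all.

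Adk encodes adenosine kinase, which phosphorylates adenosine to AMP and is the main route that keeps it low inside cells. Its probe A_51_P130666 was well above background on all 12 arrays. Log2 ratios were -2.10, -1.90, -1.32, -1.51, -0.73 and -1.47 in NOD, against -0.48, -0.21, -0.00, -0.32, -0.56 and -0.14 in NOD.B10. The strains did not overlap, which held for 17.1% of all genes tested. The difference was -1.22 ± 0.20 (SE, n = 6 each; 95% interval -1.65 to -0.79), a 2.33-fold lower ratio in NOD (adjusted p = 0.000565, exact permutation p = 0.00216).

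The unscaled islet signal of the same probe ran the other way. Net Cy5 of Adk was 70.7, 142.9, 49.5, 52.2, 58.1 and 82.1 units in NOD and 23.2, 42.6, 35.5, 22.6, 37.4 and 14.5 in NOD.B10, again without overlap and 2.59-fold higher in NOD (exact permutation p = 0.00216). Of all tested genes, 96.2% had a higher mean net Cy5 in NOD, and for 46.5% every NOD array lay above every NOD.B10 array. Across the 837 genes detected on all 12 arrays the median fold of net Cy5, NOD over NOD.B10, was 3.37, and 285 of them had a smaller fold than Adk. Relative to the median gene, the Adk difference was 0.21 from unscaled Cy5 and 0.34 with median centring in place of loess, where it did not pass (adjusted p = 0.276 and 0.202). Its direction thus depends on the scaling. Fitted with slide as a term, it was -0.88 (adjusted p = 0.00819). Within slide 2 it was -1.02 and within slide 3 -0.75, neither passing with 2 mice per strain (adjusted p = 0.0744 and 0.392).

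Ada encodes adenosine deaminase, which turns adenosine into inosine and is abundant in lymphocytes. Its probe A_51_P430423 was well above background on 4 of 6 NOD arrays and on 1 of 6 NOD.B10 arrays. Net Cy5 was 16.8, 33.3, 6.55, 11.2, 8.40 and 13.7 units in NOD and 0.922, 0.899, 1.61, 1.08, 1.33 and 15.0 in NOD.B10. All NOD.B10 arrays but replicate 6 lay below all NOD arrays, so the unscaled signal was higher in NOD (exact permutation p = 0.0216). Log2 ratios were -1.10, -1.18, -0.97, -0.87, -0.65 and -1.06 in NOD and -0.30, -0.70, -0.30, -0.27, -0.53 and 0.26 in NOD.B10. The ratio was lower in NOD by -0.67 ± 0.15 (SE, n = 6 each; 95% interval -0.99 to -0.34, adjusted p = 0.00402, exact permutation p = 0.00433), and only NOD replicate 5 overlapped NOD.B10. No fold is given, because 5 of the 6 NOD.B10 values were not well above background. With the scanner's own processed ratios the difference relative to the median gene was 0.46 (adjusted p = 0.635). Within slides 2 and 3 it was -0.64 and -0.72 (adjusted p = 0.148 and 0.407).

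Both called members share a feature of the probe. The islet signal of Adk was 0.244% of the reference signal in NOD and 0.0872% in NOD.B10, and that of Ada 0.575% in NOD and 0.128% in NOD.B10. Cy3 of Adk was 25523 to 44605 units over the arrays and that of Ada 1819 to 3717. Of the 490 tested genes with Cy5 under 1% of Cy3 in both strains, these 2 included, 431 (88.0%) were called lower in NOD. The count of 2 is thus near what such probes gave in general. Of all 717 genes called lower, 42 had a lower unscaled Cy5 signal in NOD.

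**Figure D3:**
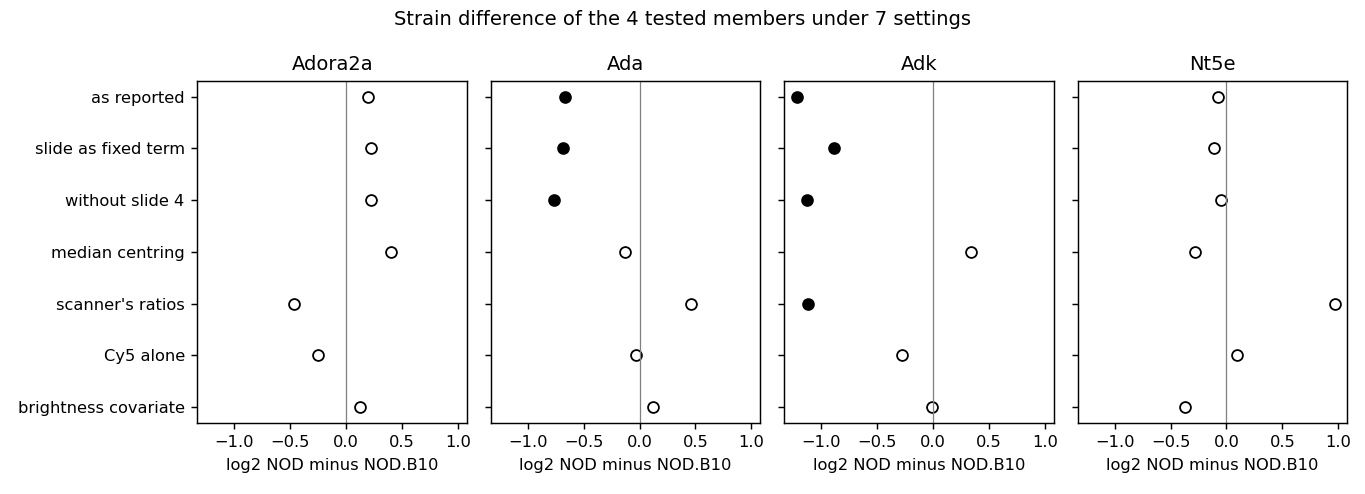
Log2 difference (NOD minus NOD.B10) of the tested members Adora2a, Ada, Adk and Nt5e, as reported and under some of the processing alternatives. These are slide as a fixed term, slide 4 left out, median centring, the scanner's ratios, quantile-normalised Cy5 and the share of bright spots as a covariate. Filled points have an adjusted p under 0.05. Where an alternative moves the median of all genes by over 0.1, values are relative to that median. Adk runs from -1.22 to 0.34 and Ada from -0.76 to 0.46, on both sides of 0.

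Dpp4 encodes a cell surface peptidase (CD26) that cleaves incretin hormones and, in human, binds adenosine deaminase. It was well above background on 1 array, NOD replicate 4, with 1 of its 3 probes. Net Cy5 of that probe, A_51_P467110, was 0.951 to 8.20 units in NOD and -3.15 to 2.64 in NOD.B10. Its log2 difference was -0.063 (adjusted p = 0.905), and the other Dpp4 probes differed by 0.079 (A_52_P443578) and -0.15 (A_52_P417368) without passing.

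The genes whose centred log2 ratios stayed closest to those of each tested member over the 12 arrays give the likeness of pattern. The root mean square distance was 0.136 for Olfr544 and 0.173 for Psd from Adora2a, whose own SD over arrays was 0.32. From Adk it was 0.144 for Svs6 and 0.144 for Ddt, against an SD of 0.73. From Ada it was 0.122 for Acadvl and 0.148 for Pgrmc1, against an SD of 0.43. From Nt5e it was 0.0938 for Cyhr1 and 0.0945 for Nabp1, close to its SD of 0.12, so Nt5e hardly varied by ratio. All arrays share 1 reference RNA and the strain difference, so these distances are a description.

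Around the members, 122 genes of purine and adenosine pathways were followed, of which 116 had a probe and 33 were tested. Of these 33, 8 were called higher and 8 lower, with a median log2 difference of 0.07 against -0.01 over all tested genes. Over all genes 18.7% were called higher and 18.3% lower, so both counts lie near the share on the array. Net Cy5 was higher in NOD for all 33, as for 96.2% of all genes.

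The list of ATP release genes and receptors with a P2 name had 6 tested of 20 genes. What these receptors bind was not tested. Of these, 5 were called higher and 0 lower, with a median of 0.56. In NOD.B10 no array detected P2rx7, P2ry10, P2ry6 or Panx1 well above background, so these genes entered the test only through NOD, and their calls are no independent count. Of all 1217 genes that entered in that way, 28.7% were called higher. P2ry10, a receptor of lymphoid cells, had net Cy5 of 17.2 to 76.7 units in NOD and -1.80 to 1.78 in NOD.B10. It was at least 1.03-fold higher in normalised Cy5 (log2 difference of the ratio 1.31, adjusted p = 0.00138). P2rx7, the ATP-gated channel of macrophages and lymphocytes, had 7.77 to 36.2 units in NOD and -1.45 to 3.05 in NOD.B10 (log2 difference 0.81 ± 0.14 SE, adjusted p = 0.000736). No fold is given for P2rx7, as its bound was not above 1. P2ry6, a UDP receptor, was at least 1.07-fold higher in mean normalised Cy5 (log2 difference of the ratio 0.63, adjusted p = 0.0214). Its net Cy5 was 6.32 to 66.8 units in NOD and -1.14 to 7.92 in NOD.B10, and the strains overlapped in net Cy5 and in ratio. Panx1, which forms an ATP release channel, was at least 1.07-fold higher in mean normalised Cy5 (log2 difference of the ratio 0.49, adjusted p = 0.0301). Its ratios overlapped between the strains, while its net Cy5 did not. The Panx1 call was lost without NOD replicates 2, 4 or 6 or NOD.B10 replicates 1, 2 or 6 (log2 difference 0.38 to 0.48, adjusted p = 0.0525 to 0.0668). The Panx1 and P2ry6 calls were also lost with slide as a term (adjusted p = 0.138 and 0.213) and without slide 4 (adjusted p = 0.0649 and 0.0887). With median centring, relative to the median gene, P2rx7 was 0.066 and P2ry10 0.28 (adjusted p = 0.822 and 0.406), and P2ry6 and Panx1 turned below it, at -0.088 and -0.066.

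Leukocyte markers were higher in NOD as well. Ptprc, which encodes CD45, had a median net Cy5 of 599 units in NOD and 1.16 in NOD.B10, and Cd52 had 223 units in NOD and 0.997 in NOD.B10. Beyond the general leukocyte genes, 4 of 4 tested T cell markers, 5 of 5 tested B cell markers and 4 of 5 tested macrophage markers were called higher. The tested leukocyte markers except Srgn, the tested B cell markers, and the tested T cell markers except Thy1 entered the test only through NOD. Their calls are therefore no independent count. Over all tested genes 18.7% were called higher, and 28.7% of those that entered only through NOD. The summed signal of macrophage markers was 1117 to 7813 units in NOD and 28.2 to 124 in NOD.B10. Cd3e, Cd3g, Cd2, Lck, Cd79a, C1qa and C1qb were well above background on no array. The part of these cells in the P2 receptor values was not tested. Without slide 4, 4 of all 33 pathway genes were called higher and 7 lower.

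Intracellular purine metabolism had 12 tested of 40 genes, with 2 called higher and 6 lower and a median of -0.33. As for Adk and Ada, and for 96.2% of all genes, mean net Cy5 was higher in NOD for all 12. Adssl1, an adenylosuccinate synthase of AMP synthesis, was lower by ratio (-1.55 ± 0.21 SE, adjusted p = 0.000172), with net Cy5 of 7.45 to 25.8 units in NOD and 3.66 to 11.7 in NOD.B10. Ak3, a mitochondrial adenylate kinase, differed by -1.01 (adjusted p = 0.00104), with 26.9 to 107.8 units in NOD and 8.17 to 38.9 in NOD.B10. Uox, urate oxidase, differed by -1.36 (adjusted p = 0.00105) and Paics, of purine synthesis, by -0.42 (adjusted p = 0.00592). With median centring, relative to the median gene, Ak3 and Paics turned to 0.29 and 0.15, and Adssl1 and Uox shrank to -0.24 and -0.37 (adjusted p = 0.271 and 0.203). Of the 12 genes, 9 had mean Cy5 under 1% of Cy3 in NOD.B10.

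Receptor signalling had 8 tested of 33 genes, with 1 called higher and 2 lower and a median of -0.02. Adcy7, an adenylyl cyclase known from leukocytes, was at least 2.25-fold higher in normalised Cy5, with net Cy5 of 33.4 to 202.6 units in NOD and -3.35 to 3.96 in NOD.B10. By ratio it differed by 1.57 ± 0.23 SE on the log2 scale (adjusted p = 0.000346). It too entered the test only through NOD, since NOD.B10 gave no detection. Prkar2b, a regulatory subunit of protein kinase A, differed by -1.08 (adjusted p = 0.000862), with 17.9 to 204.0 units in NOD and 15.97 to 35.4 in NOD.B10. Gnai1, an inhibitory G protein subunit through which A1 and A3 receptors signal, differed by -0.63 (adjusted p = 0.00123), with 4.39 to 26.5 units in NOD and 1.46 to 12.6 in NOD.B10. With median centring, relative to the median gene, Prkar2b was -0.069 and Gnai1 -0.067 (adjusted p = 0.864 and 0.829), and from unscaled Cy5 they were -0.053 and -0.20 (adjusted p = 0.874 and 0.0954).

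In the remaining lists no gene was called. Of the extracellular nucleotide enzymes, 4 of 15 were tested, with Acpp, a phosphatase that can form adenosine from AMP, at 0.29 (adjusted p = 0.107) and Enpp4 at 0.17 (adjusted p = 0.391). Of the relatives of Dpp4, 3 of 8 were tested, with Dpp9 at -0.22 (adjusted p = 0.0864) and Prep at -0.23 (adjusted p = 0.135). Of the 6 other nucleoside transporters, 5 had a probe and none of these passed the filter.

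**Figure D4:**
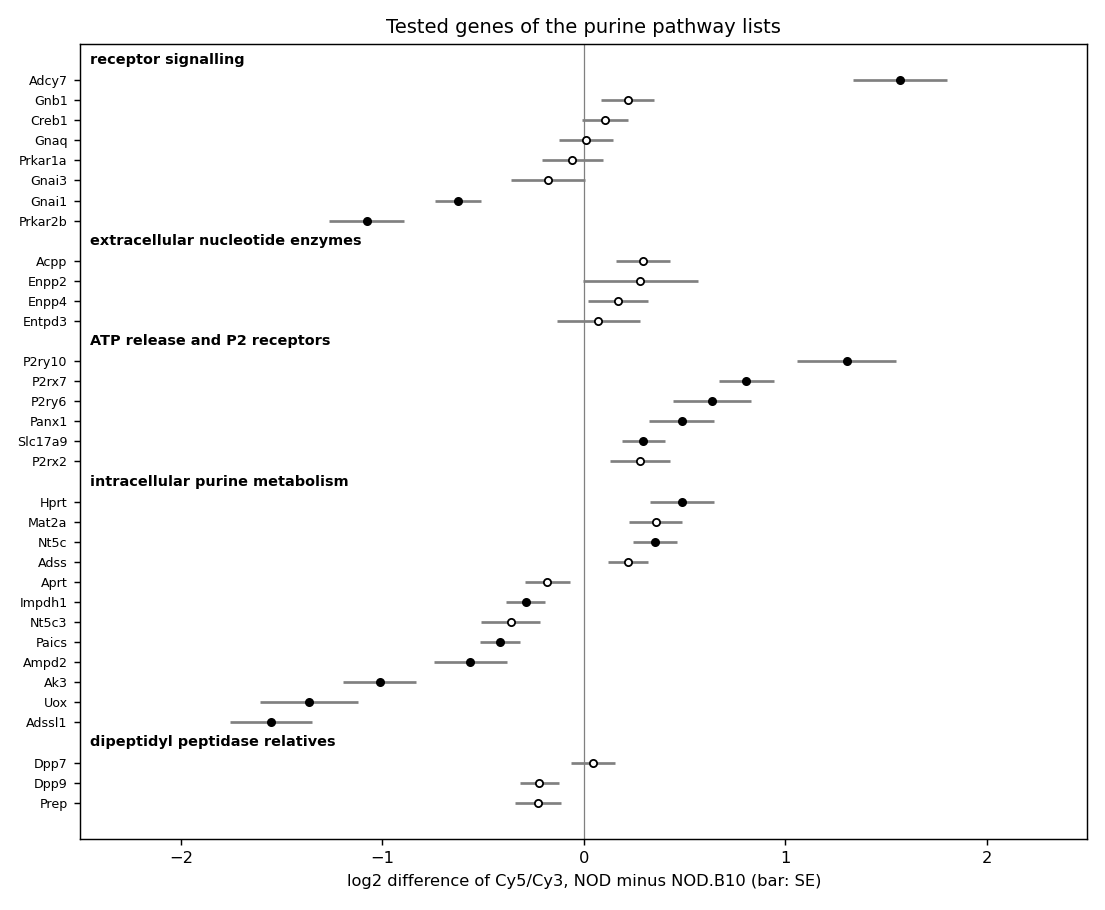
Log2 difference (NOD minus NOD.B10) of each tested gene in the pathway lists, 1 point per gene. Filled points have an adjusted p under 0.05, and grey bars are the SE. The P2 receptor and ATP release genes lie to the right (median 0.56) and the intracellular purine genes mostly to the left (median -0.33).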

How the data were processed

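Each array's deposited table holds intensity values for Cy5 and Cy3 (spot, background-subtracted and processed signals, in scanner units). Per the file headers they come from Feature Extraction 10.5.1.1. The same deposited tables give the log10 of processed Cy5 over Cy3. The deposited series table holds log2 ratios, which equalled the log2 of processed Cy5 over Cy3 within 0.01 for 100% of 40929 probes. Its medians per array run from -0.285 to -0.062, and the labels do not state its centring. Cy5 is the islet sample per the labels, and the dyes were not swapped.

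Median signals went through normexp (offset 50), then loess, in limma 3.58.1 under R 4.3.3, spots marked as outliers were dropped (160 to 250 per array), and spots of a probe were averaged. No spot was saturated. Symbols came through probe accessions from a GRCm38.p6 annotation. A probe was tested with Cy5 well above background on at least 4 arrays, and the brightest per symbol was kept. A second fit took all 41174 probes. The test was limma's moderated test at an adjusted p of 0.05, and fits were checked on simulated data. The simulation added known changes to independent noise, without slide or brightness differences. It therefore checks the fit alone, not the normalisation. The number of arrays limits the precision, and p values measure the spread between mice.

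Where a group had no array well above background, its normalised Cy5 was floored per array at percentile 10 of the well-above-background signals. That gives a lower bound for the fold of normalised Cy5, not of the ratio, and it is open to dye bias. The bound compares group means and does not include sampling error. This floor was chosen after values were seen. The members and lists were chosen with earlier results of these data known. All members are named, with up to 4 passing genes of smallest p per list (up to 2 where none passes) and the 2 nearest genes of each tested member. Slide, scan day, normalisation, filter and left-out mice were the alternatives.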

Additional observations from a re-analysis of the deposited data

How the results depend on the processing

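Over all genes 734 were called higher and 717 lower as reported, against 586 and 331 with plain background subtraction, 1982 and 0 with median centring, 1097 and 314 with the scanner's ratios or the deposited table, 864 and 266 from quantile-normalised Cy5 and 3276 and 0 from unscaled Cy5 (added after the data were seen). These scalings move the median of all genes by 0.35, 0.44, 0.48, 0.09 and 0.42, and single values below are relative to it where over 0.1. All counts are before this shift is taken off. Over all genes, 46 were called higher and 55 lower within slide 2, and 1 and 1 within slide 3. With the share of bright spots as a covariate they were 3 and 0. That share did not overlap between the strains (10.7 to 17.3% in NOD, 3.96 to 7.88% in NOD.B10), so this fit cannot separate strain from brightness. Counts of 0 in these settings thus say little about the members or lists. Members called higher and lower were 0 and 1 with plain subtraction (Adk), 2 and 0 with median centring (Adk and Adora2a), 1 and 0 with the scanner's ratios (Nt5e), 0 and 0 from quantile-normalised Cy5, within slide 2, within slide 3 and with the share of bright spots as a covariate, 0 and 1 with Cy5 required on 6 arrays (Adk), and 3 and 0 from unscaled Cy5 (Adk, Ada, Nt5e), against 0 and 2 as reported. Relative to the median gene, Adk alone passed with plain subtraction (-1.56, adjusted p = 0.00449) and with the scanner's ratios (-1.12, adjusted p = 0.00288), and no tested member with median centring or from unscaled Cy5. There Nt5e was 0.97 with the scanner's ratios (adjusted p = 0.120), and unscaled Adk, Ada and Nt5e were 0.21, -0.19 and -0.17 (adjusted p = 0.276, 0.121 and 0.159). Pathway genes called higher and lower, 8 and 8 as reported, were 6 and 4, 14 and 0, 9 and 4, 7 and 5, and 25 and 0 under the 5 scalings, 5 and 8 with the 6-array filter, 3 and 7 with slide fixed, 5 and 7 with scan day fixed, 4 and 7 without slide 4, 0 and 0 within slide 2, within slide 3 or with the covariate. Member probes called, 3 as reported, were 1 with plain subtraction, median centring, the scanner's ratios, slide fixed or slide 2 alone, and 0 from quantile-normalised Cy5, slide 3 alone or the covariate. Leaving out each mouse gave 0 members higher and 2 lower every time, 5 to 9 pathway genes higher (5 without NOD replicate 2 or NOD replicate 6), 6 to 9 lower and 2 to 3 member probes. The Adk difference then ran from -1.38 to -1.10 and that of Ada from -0.75 to -0.55.

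Values that changed sign were these, none past the threshold, and the cause was not tested. Adora2a was -0.39 with plain subtraction, -0.46 with the scanner's ratios and the deposited table, -0.25 from quantile-normalised Cy5 and -0.23 from unscaled Cy5. Ada was 0.46 with the scanner's ratios and the table and 0.12 with the covariate. Adk was 0.34 with median centring and 0.21 unscaled, with -0.01 under the covariate. Nt5e was 0.97 with the scanner's ratios and the table and 0.093 from quantile-normalised Cy5. Adora1 was 0.75 with median centring, 0.041 with slide fixed, 0.21 within slide 3, and 0.13 with scan day fixed or without slide 4. With median centring P2ry6 was -0.088, Panx1 -0.066, Acpp -0.044, Ak3 0.29 and Paics 0.15. With the covariate P2ry6 was -0.56, Panx1 -0.039, Acpp -0.13 and Uox 0.24. Prep was 0.25 with the scanner's ratios and the table and 0.0059 from quantile-normalised Cy5, where Uox was 0.060 and Paics 0.051. From unscaled Cy5 Acpp was -0.046, Ak3 0.15 and Paics 0.26.

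Same-numbered mice of the strains did not deviate together (r from -0.15 to 0.21, over 0.1 in 3 of 6 pairs, 2 NOD arrays closest to their own number), so the numbers were not used as pairs. With a replicate block 5 pathway genes were called higher and 6 lower, 0 members higher and 2 lower, and 2 member probes. Low islet signal limits all members. Adk was well above background on all 12 arrays, yet its Cy5 was 0.244% of Cy3 in NOD and 0.0872% in NOD.B10. Adora2a was well above background on 11 arrays, with net Cy5 of 3.95 to 40.2 units.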
